A study of Homo sapiens with 2 samples.

Results

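The Wnt ligands, receptors and secreted modulators are 50 genes that act at the cell surface or outside the cell, and they were chosen by name alone. They comprise 19 WNT ligands, 15 receptors and co-receptors (FZD, LRP5, LRP6, ROR and RYK), 4 R-spondins (RSPO, agonists) and 12 antagonists (DKK, SFRP, WIF1, KREMEN1, ZNRF3 and RNF43). All rows of the deposited peak lists that named one of them as the gene were taken, which gave 115 of 56159 peaks for 25 of the 50 genes. Open chromatin was mapped by FAIRE-seq, which enriches DNA free of crosslinked protein, in HepG2, a human liver cancer cell line. Cells had been transduced with lentiviral particles for a small hairpin RNA that was either scrambled (control) or directed against the orphan nuclear receptor NR2E3 (NR2E3-depleted). Both groups had therefore received a lentiviral hairpin, the depleted cells carried 1 hairpin (KO II in the study's naming), and each group had 1 library, with no replicate. The deposited lists hold peaks shared by both libraries (common), peaks of the control library alone (control-specific) and peaks of the NR2E3-depleted library alone (depleted-specific).

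Wnt proteins are secreted lipid-modified ligands that bind Frizzled receptors together with the co-receptors LRP5 and LRP6, and this stabilises β-catenin, the coactivator of TCF and LEF factors. ROR1, ROR2 and RYK are receptors of Wnt signals that need not pass through β-catenin. Frizzled receptors are cleared from the membrane by the ubiquitin ligases ZNRF3 and RNF43, which R-spondins hold back, while DKK1 and KREMEN1 act against LRP5 and LRP6. In liver the pathway sets the zonation of hepatocytes and is often active in hepatocellular carcinoma. HepG2 cells are known to carry a stabilised form of β-catenin.

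Peak scores under 10 were whole multiples of 0.407 in the common and control-specific lists and of 0.507 in the depleted-specific list, so each score was turned into a number of tags (sequenced fragments counted in the peak). The same number of tags therefore has a higher score in the depleted-specific list than in the other lists. Common peaks carry the control scale, and their height after depletion was not analysed here. NR2E3 itself was the gene named for 1 peak, which was depleted-specific and outside the promoter. Among 10 genes that mark hepatocytes or HepG2 cells, 7 had a common promoter peak, and 1 of these, HNF4A, had a control-specific promoter peak as well. ALB and AFP had peaks outside promoters only, and TTR had no listed peak. Among 6 genes of blood, endothelial, mesenchymal and muscle cells, 0 had a promoter peak. Peaks outside promoters were listed for 3 of these 6 (PECAM1, CD3E and COL1A2). A promoter peak in any list was found for 28.7% of all protein-coding genes, and 6 genes are too few to be set apart from that share. Chromosomes 2, 6, 14, 16, 17 and 20 were dense in peaks in an earlier look at these data and held 70.4% of all peaks. They carry 10 of the 50 Wnt genes and 64.3% of their peaks. Whether DNA copy number moves with these counts was not tested. All intervals are at the 95% level, take peaks as independent and cover counting error only.

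The sequences below come from common promoter peaks, from a peak next to DKK1 and from peaks outside promoters with among the most tags. Those of the LRP6, ZNRF3 and KREMEN1 promoters are not shown here. Capitals mark letters of 8 short motifs searched on both strands. The Sp1 letters were GGGCGG. The NF-Y box was searched as CCAAT. For TCF/LEF factors either CTTTGA or its variant CTTTGT counted. The FOXA letters were TGTTTAC. Those of C/EBP factors were TTGCNNAA. HNF4 was searched as CAAAGTCC, which can overlap a TCF/LEF match. The AP-1 letters were TGANTCA. The half-site bound by receptors of the NR2E3 type was searched as AAGTCA. The first pair are the parts upstream of the transcription start site (TSS) of the common promoter peaks of FZD5 and RNF43, on the minus strand (hg38).

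FZD5 promoter, chr2:207769907-207770124: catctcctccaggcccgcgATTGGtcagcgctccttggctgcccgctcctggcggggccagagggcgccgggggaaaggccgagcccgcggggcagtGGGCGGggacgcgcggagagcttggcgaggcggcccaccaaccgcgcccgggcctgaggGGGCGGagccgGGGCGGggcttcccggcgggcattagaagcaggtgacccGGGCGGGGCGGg

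RNF43 promoter, chr17:58417535-58417707: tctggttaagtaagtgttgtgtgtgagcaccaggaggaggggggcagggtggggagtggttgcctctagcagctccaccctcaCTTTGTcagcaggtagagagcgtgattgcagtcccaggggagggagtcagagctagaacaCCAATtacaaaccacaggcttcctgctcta

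The FZD5 stretch held 5 Sp1 matches, the last pair overlapping, and 1 CCAAT match. The RNF43 stretch held 0 Sp1 matches, 1 CCAAT match and 1 TCF/LEF match. The next sequence is the central 200 bases of a depleted-specific peak upstream of DKK1, on the plus strand, shown because it lies next to the start of an antagonist. These bases held 1 CCAAT match, and the whole peak also held Sp1 letters and an NR2E3 half-site.

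DKK1 upstream, chr10:52313878-52314077: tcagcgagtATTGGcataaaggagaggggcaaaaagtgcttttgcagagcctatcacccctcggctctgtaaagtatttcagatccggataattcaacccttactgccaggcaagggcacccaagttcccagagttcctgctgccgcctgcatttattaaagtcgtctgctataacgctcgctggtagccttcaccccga

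The remaining sequences are the central 200 bases, on the plus strand, of depleted-specific, control-specific and common peaks outside promoters that had among the most tags of their list at Wnt genes, and of the only peak listed for the ligand WNT10A.

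FZD5 depleted-specific, chr2:207799363-207799562: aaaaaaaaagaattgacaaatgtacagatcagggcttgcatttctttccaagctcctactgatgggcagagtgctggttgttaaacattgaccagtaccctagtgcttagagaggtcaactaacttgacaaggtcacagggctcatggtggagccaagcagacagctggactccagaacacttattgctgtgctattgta

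FZD5 depleted-specific, chr2:207870032-207870231: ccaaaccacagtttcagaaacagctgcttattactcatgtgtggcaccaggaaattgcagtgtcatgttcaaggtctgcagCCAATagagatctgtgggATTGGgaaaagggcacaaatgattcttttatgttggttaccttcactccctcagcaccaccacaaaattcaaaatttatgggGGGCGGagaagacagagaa

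LRP5 depleted-specific, chr11:68298214-68298413: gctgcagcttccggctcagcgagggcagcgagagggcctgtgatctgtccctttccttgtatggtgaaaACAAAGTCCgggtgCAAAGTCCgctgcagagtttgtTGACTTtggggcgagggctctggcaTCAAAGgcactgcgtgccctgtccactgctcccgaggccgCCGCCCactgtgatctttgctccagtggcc

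WNT10A depleted-specific, chr2:218876782-218876981: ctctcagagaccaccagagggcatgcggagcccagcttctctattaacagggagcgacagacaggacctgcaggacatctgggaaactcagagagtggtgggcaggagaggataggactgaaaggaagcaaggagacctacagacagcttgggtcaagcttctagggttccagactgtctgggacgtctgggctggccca

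LRP5 control-specific, chr11:68315324-68315523: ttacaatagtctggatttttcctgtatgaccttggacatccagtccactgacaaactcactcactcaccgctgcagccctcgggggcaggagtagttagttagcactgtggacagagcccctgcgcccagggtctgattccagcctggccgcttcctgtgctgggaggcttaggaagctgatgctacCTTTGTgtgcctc

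FZD5 common, chr2:207870337-207870536: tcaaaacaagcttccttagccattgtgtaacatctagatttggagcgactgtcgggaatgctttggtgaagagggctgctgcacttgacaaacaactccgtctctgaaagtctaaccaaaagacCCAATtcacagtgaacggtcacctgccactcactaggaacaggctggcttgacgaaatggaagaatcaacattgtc

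The LRP5 depleted-specific stretch had the most matches, with 2 for HNF4, 2 for TCF/LEF, 1 for Sp1 and 1 for the NR2E3 half-site, and a TCF/LEF match there overlaps an HNF4 match. The highest depleted-specific peak of FZD5 and the WNT10A peak held 0 matches in these windows. A match says only that the letters are present.

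The study asked how loss of NR2E3 changes chromatin accessibility in relation to Wnt/β-catenin signalling, and promoter peaks are given first. A promoter peak was listed for 5 of the 50 genes. In the depleted-specific list these were the co-receptor LRP6 and the antagonists ZNRF3 and KREMEN1. In the common list they were the receptor FZD5 and the antagonist RNF43. In the control-specific list there were 0. No ligand and no R-spondin had a promoter peak in any list.

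The 3 genes with a depleted-specific promoter peak made up 6.0% of the Wnt genes (1.25% to 16.5%), beside 11.9% of all 20056 protein-coding genes. The 0 control-specific genes allow a share of up to 7.11%, beside 3.72% of all protein-coding genes. The 2 genes with a common promoter peak made up 4.0% (0.488% to 13.7%), beside 15%. For a promoter peak in any list the share was 10.0% (3.33% to 21.8%), beside 28.7%. The intervals of the depleted-specific and control-specific shares hold the value of all protein-coding genes. Those of the common share and of the share in any list lie below it.

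LRP6, the co-receptor that is phosphorylated on Wnt binding, occupies 12116025 to 12267044 of chromosome 12 (hg38, minus strand). Its depleted-specific promoter peak ran from 12266915 to 12267215, with its centre at -21 bp (upstream) of the TSS, and rested on 12 tags (Poisson interval 6.20 to 21.0). It had 72.4% GC, 37 CpG dinucleotides and none of the 8 motifs. The nearest peak of the control library was 25936 bp away. LRP6 had 3 further depleted-specific peaks, of 15 tags in intron 2, 18 tags in intron 1 and 13 tags upstream of the gene, a common peak of 16 tags in intron 2, and 0 control-specific peaks.

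ZNRF3 lies on chromosome 22 from 28883572 to 29057488. Its depleted-specific promoter peak, from 28883344 to 28883644, was centred at -78 bp and rested on 16 tags (9.15 to 26.0), the most of the 3. It had 74.4% GC, 36 CpG dinucleotides and an Sp1 match. A second annotated start of ZNRF3 had a control-specific peak of 13 tags centred 595 bp downstream, in intron 1. In all, ZNRF3 had 5 depleted-specific, 1 control-specific and 4 common peaks, so that its introns held peaks of both libraries.

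KREMEN1, a receptor for DKK proteins, lies on the same chromosome from 29073035 to 29168333. Its depleted-specific promoter peak, from 29072685 to 29072985, was centred at -200 bp and rested on 13 tags (6.92 to 22.2). It had 73.8% GC, 27 CpG dinucleotides, an Sp1 match and an NR2E3 half-site. Its other peak, in intron 2, was common and rested on 24 tags. The 3 promoters thus shared a high GC content, against a median of 63.8% in all depleted-specific promoter peaks. High GC was not particular to them. In RefSeq promoter sequences the median was 72.7% for 14 Wnt genes without a listed peak. It was 67.3% for 18 with peaks outside the promoter only, 54.3% for FZD5 and RNF43, and 62.3% for all protein-coding genes. The median of the depleted-specific list was 12 tags, near the 12 of LRP6 and 13 of KREMEN1. The 16 of ZNRF3 were more than 86.6% of depleted-specific peaks had.

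The common promoter peak of FZD5 ran from 207769824 to 207770124 on chromosome 2, was centred at -68 bp and rested on 28 control tags (18.6 to 40.5), more than 94.9% of common peaks. That of RNF43, from 58417407 to 58417707 on chromosome 17, was centred at -23 bp and rested on 20 control tags (12.2 to 30.9). They differed in base composition, with 77.4% GC and 39 CpG dinucleotides at FZD5 but 50.2% GC and 3 CpG dinucleotides at RNF43. Both genes lie on dense chromosomes, while LRP6, ZNRF3 and KREMEN1 do not.

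The gene named for a peak is the one with the nearest start. A peak at DKK1, a secreted antagonist that binds LRP6, was therefore listed under another gene. By its supplementary plots, the study counts DKK1 among Wnt pathway genes with raised expression and a depleted-specific promoter peak. A depleted-specific promoter peak on chromosome 10 from 52313827 to 52314127 was listed under the antisense gene PRKG1-AS1, but its centre was 304 bp upstream of the DKK1 TSS. It rested on 12 tags (6.20 to 21.0), and the nearest peak of the control library was 5511 bp away. The 3 peaks listed under DKK1 itself were intergenic and 39834 to 62624 bp downstream of its TSS, 1 of them common (13 tags) and 2 depleted-specific (14 tags each). The DKK1 peak was singled out after its values were seen.

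Within 1000 bp of any GENCODE start, whatever gene was named, 6 Wnt genes had a depleted-specific peak (DKK1, KREMEN1, LRP6, RNF43, WNT3 and ZNRF3), or 12.0% (4.53% to 24.3%). The share of all protein-coding genes was 17.9%. A control-specific peak was found there for 1 gene, ZNRF3, or 2.00% (0.0506% to 10.6%), beside 6.79%. A common peak was found for 2 genes, or 4.0%, beside 20.9%. The WNT3 peak lay in an intron, 129 bp from an internal start. It had 71.8% GC, the highest of any Wnt gene peak outside promoters, with 36 CpG dinucleotides and 12 tags. RNF43 had 2 depleted-specific peaks there, of 13 and 14 tags, which alternated with its 2 common peaks of 17 and 20 tags.

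Within 10000 bp of a start, whatever gene was named, 10 Wnt genes had a depleted-specific peak (interval of the share 10.0% to 33.7%), beside 34.6% of all protein-coding genes. A control-specific peak was found for 7 (5.82% to 26.7%), beside 18.5%, and a common peak for 4 (2.22% to 19.2%), beside 29.5%. The depleted-specific and common intervals lie below the value of all genes. Within 100000 bp the numbers were 36 (57.5% to 83.8%), 25 (35.5% to 64.5%) and 26 (37.4% to 66.3%) of 50, beside 74.9%, 50.8% and 61.7%, all within their intervals.

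**Figure D1:**
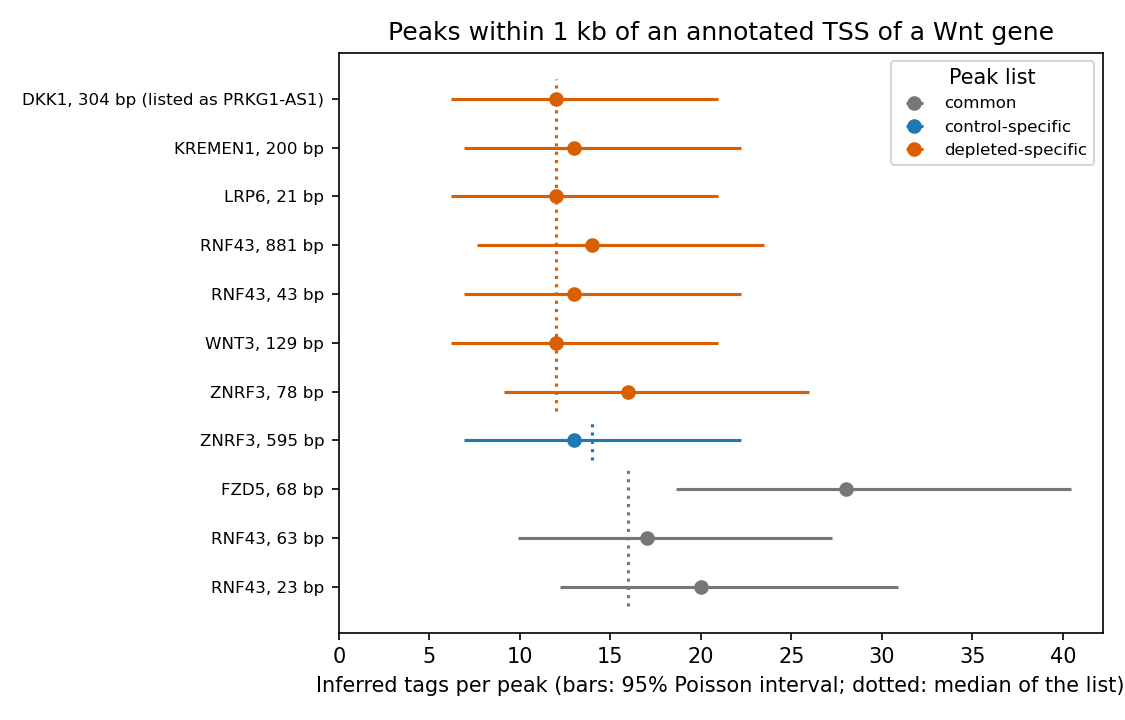
Inferred tags (horizontal axis) of the 11 peaks whose centre lies within 1000 bp of a GENCODE start of a Wnt gene, with the distance in bp beside the gene name, 95% Poisson intervals as bars and the median of each list dotted. The 7 depleted-specific peaks have 12 to 16 tags with overlapping intervals, the control-specific peak has 13, and the FZD5 promoter peak is the highest with 28.

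Over all classes, 31 peaks of Wnt genes were common, 25 were control-specific and 59 were depleted-specific. Depleted-specific peaks outnumbered control-specific ones by 2.36 (1.46 to 3.93), against 1.57 for all peaks. The interval of the Wnt genes holds the value of all peaks. The ratio rested on the height required of a peak. It was 1.08 (0.456 to 2.60) with at least 15 tags in each specific peak and 4.0 (2.09 to 8.27) with a score of at least 6, where all peaks gave 0.707 and 2.61.

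By role, the ligands had 9 depleted-specific, 3 control-specific and 2 common peaks. In the same order the receptors had 25, 16 and 15, the R-spondins 11, 3 and 1, and the antagonists 14, 3 and 13. The ratio of depleted-specific to control-specific peaks was 1.56 (0.802 to 3.13) for receptors and 4.67 (1.30 to 25.3) for antagonists, and these intervals overlap. Of the control library's peaks, 81.2% at antagonists (54.4% to 96.0%) and 48.4% at receptors (30.2% to 66.9%) were common, beside 46.9% of all peaks in that library. These role values rest mostly on a few peak-rich genes. RNF43 had 7 common and 2 control-specific peaks, ZNRF3 had 4 and 1, and the receptor FZD5 had 11 and 8.

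At least 1 peak was listed for 8 of 19 ligands, 9 of 15 receptors, 2 of 4 R-spondins and 6 of 12 antagonists. These 25 of 50 Wnt genes (interval of the share 35.5% to 64.5%) stand beside 52.7% of protein-coding genes. More depleted-specific than control-specific peaks were listed for 17 genes, or 34.0% (21.2% to 48.8%), beside 29.1%. The reverse held for 4 genes, FZD7, FZD9, WNT5B and WNT8B, or 8.0% (2.22% to 19.2%), beside 9.57%. Both shares were near those of genes at large.

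**Figure D2:**
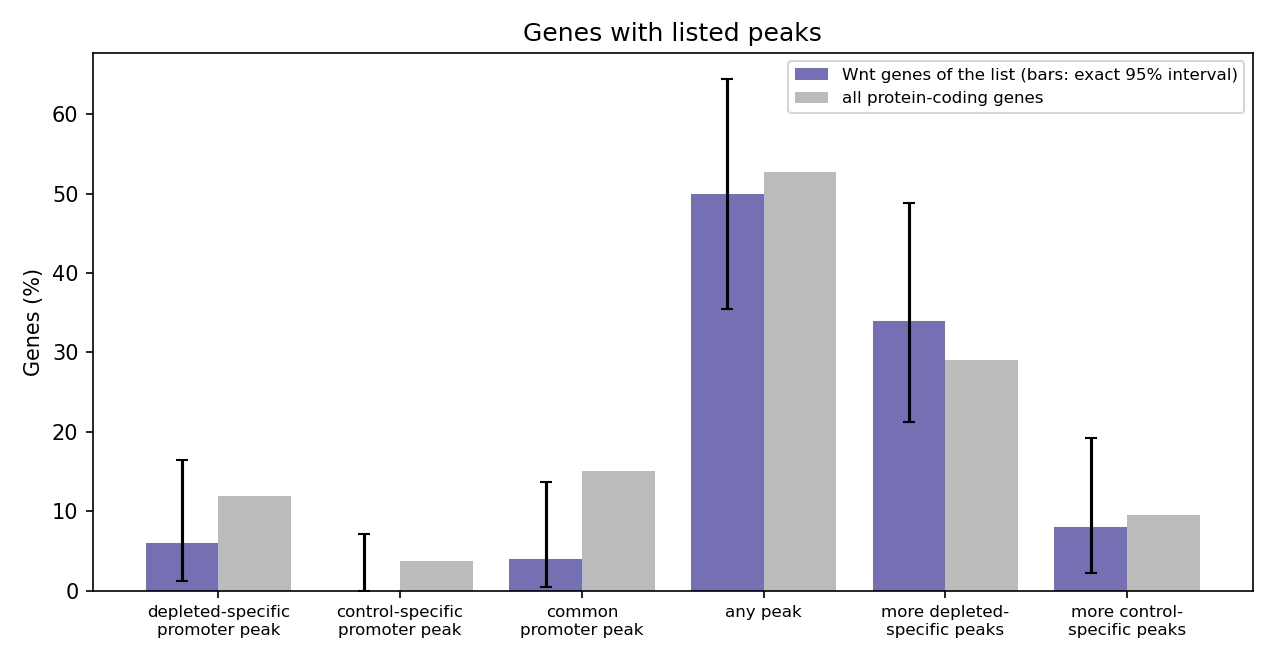
Percentage of the 50 Wnt genes (dark bars, exact 95% intervals) and of all 20056 protein-coding genes (light bars) that meet each condition on listed peaks. The interval of the Wnt genes holds the value of all genes in 5 of the 6 conditions shown, and lies below it for a common promoter peak (4.0% against 15%).

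Among the ligands, WNT3, which signals through β-catenin, had the most peaks, with 1 control-specific and 4 depleted-specific. Its control-specific peak rested on 14 tags and its depleted-specific peaks on 10 to 14 tags. Of the latter, 1 lay in an intron of NSF, 94400 bp from the listed WNT3 start. WNT8A had 2 depleted-specific peaks, of 11 and 13 tags, upstream of the gene. WNT10A had 1 depleted-specific peak of 17 tags (9.90 to 27.2), at -3971 bp, the closest to a listed start of any ligand peak. WNT5A, a ligand known for signalling outside β-catenin, had 1 depleted-specific peak of 13 tags, in the last intron of ERC2.

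WNT9B had a common peak of 21 tags in intron 1 and a depleted-specific peak of 18 tags (10.7 to 28.4) in its last exon. WNT6 had 1 common peak of 19 tags at -12015 bp. WNT5B and WNT8B each had 1 control-specific peak, of 15 tags. The other ligands, WNT1, WNT2, WNT2B, WNT3A, WNT4, WNT7A, WNT7B, WNT9A, WNT10B, WNT11 and WNT16, had none listed. These 11 genes may still have peaks nearby that were listed under another gene, and a peak below the calling threshold would not be listed.

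**Figure D3:**
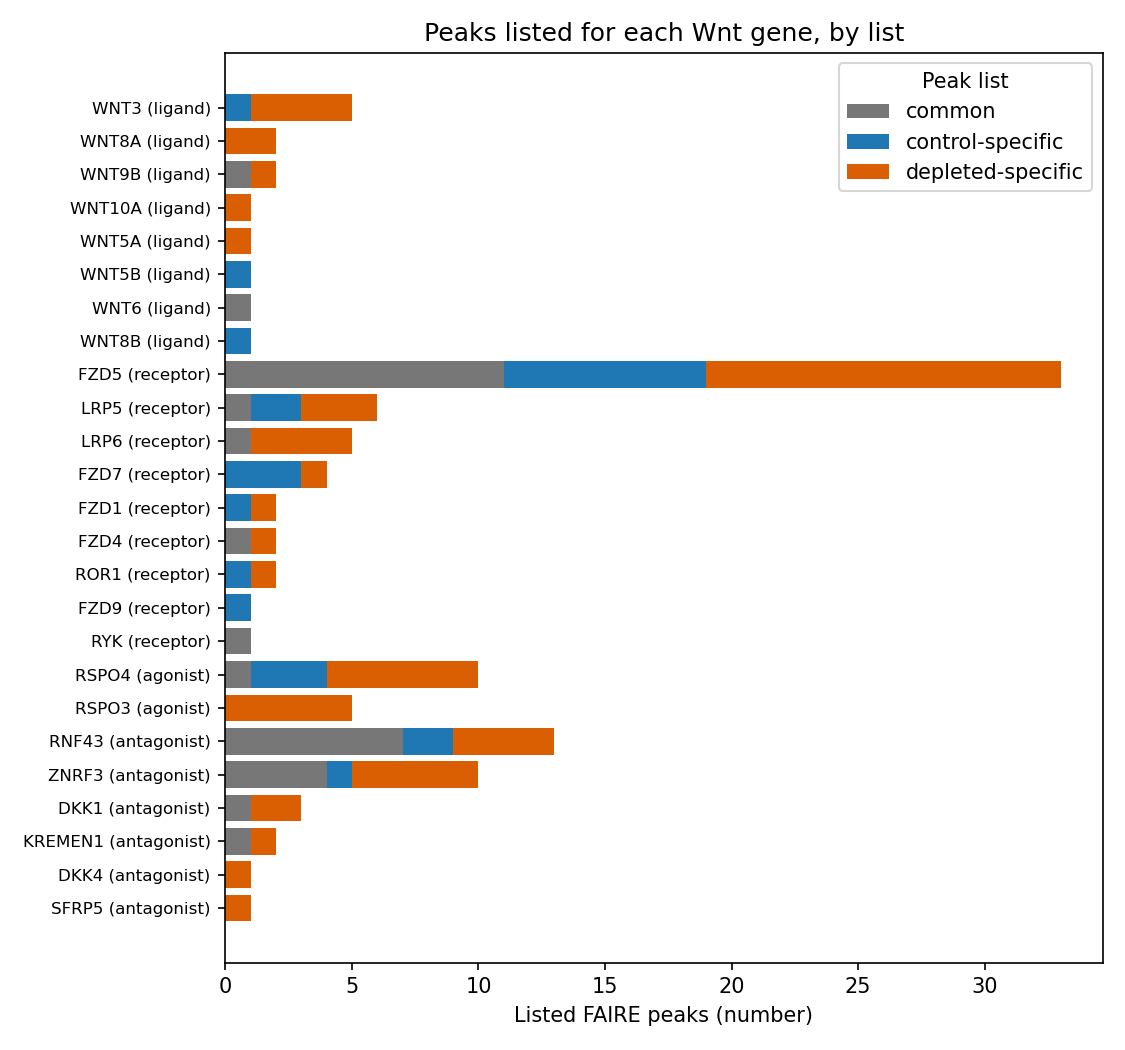
Number of listed peaks (horizontal axis) for each of the 25 Wnt genes with a peak, in order of role, coloured by list. FZD5 has 33 peaks, followed by RNF43 with 13 and RSPO4 and ZNRF3 with 10 each, and RSPO3 has 5 peaks that are all depleted-specific.

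Among the receptors, FZD5 had 33 peaks, 28.7% of all peaks of Wnt genes, with 11 common, 8 control-specific and 14 depleted-specific. They spread over 127912 bp, or 1 peak in 3.88 kb. The promoter holds 1 of them. Another 17 lie between FZD5 and the next gene, at 6511 to 50274 bp upstream of the TSS. The remaining 15 lie within PLEKHM3, at 54977 to 127680 bp, where FZD5 is named because its listed start is the nearest. The lists were mixed along the whole stretch, with 8 depleted-specific, 4 control-specific and 5 common peaks in the intergenic part and 6, 4 and 5 within PLEKHM3.

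The highest depleted-specific peak of any Wnt gene lay there, from 207799312 to 207799612, at -29556 bp. It rested on 25 tags (16.2 to 36.9), more than 99.5% of depleted-specific peaks, and the nearest peak of the control library was 2141 bp away. The next highest, of 22 tags (13.8 to 33.3), was at -100225 bp, and its centre was 305 bp from that of a common peak of 34 control tags (23.5 to 47.5). These neighbouring windows cover adjoining DNA, so a separate site in the depleted library is not shown by that pair. Without FZD5 the ratio over the other genes was 2.65 (1.49 to 4.93).

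**Figure D4:**
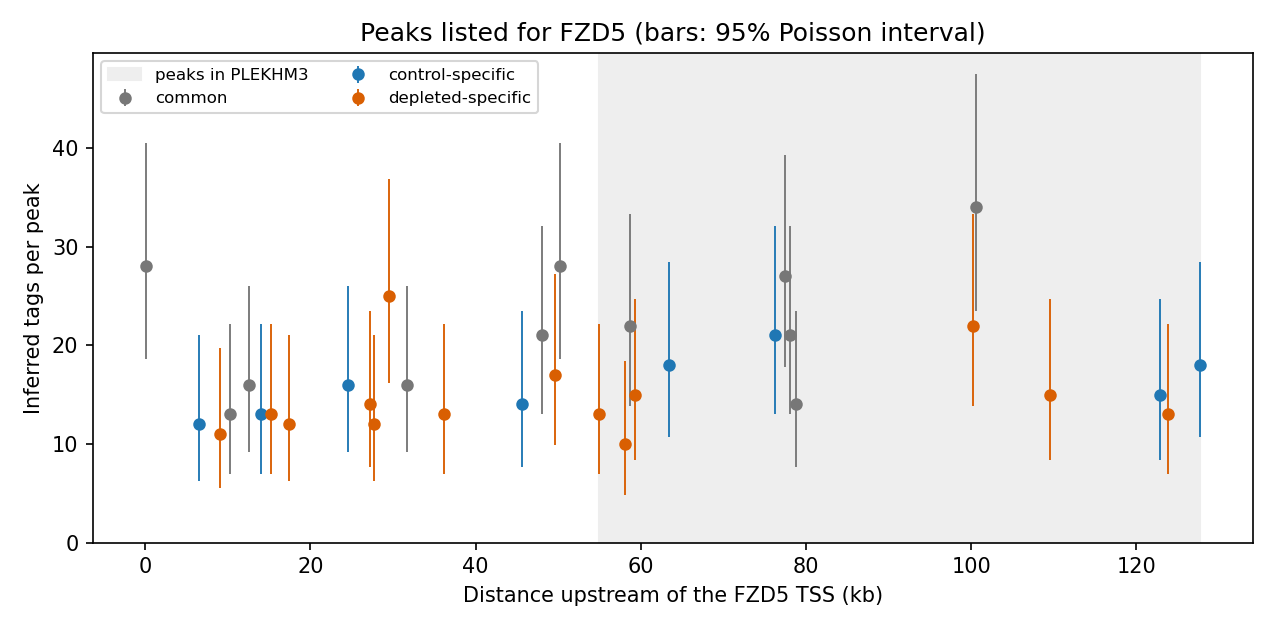
Inferred tags per peak (vertical axis, 95% Poisson intervals) against the distance upstream of the FZD5 TSS in kb for the 33 peaks listed under FZD5, with the stretch of peaks inside PLEKHM3 shaded. Peaks of the 3 lists alternate along the stretch, and the highest is a common peak of 34 tags beside a depleted-specific peak of 22.

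LRP5, the paralogue of LRP6, had 3 depleted-specific, 2 control-specific and 1 common peaks and none in its promoter. The depleted-specific peaks rested on 19 tags (11.4 to 29.7) at -14278 bp and on 16 tags each in introns 1 and 5. The control-specific peaks rested on 14 tags at -2829 bp and on 19 tags (11.4 to 29.7) at 2832 bp. The control-specific peaks thus lay closer to the start on both sides than any depleted-specific one, at like tag numbers. Their deposited scores were 5.69 and 7.73, against 8.11 to 9.63 for the depleted-specific peaks.

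FZD7, a Frizzled often raised in liver cancer, had 3 control-specific peaks of 13, 14 and 14 tags and 1 depleted-specific peak of 12 tags, all between -97664 and -48719 bp. FZD4 had a common peak of 17 tags and a depleted-specific peak of 11 tags whose centre was 865 bp away, both in an intron of PRSS23. FZD1 and ROR1 each had 1 control-specific and 1 depleted-specific peak, FZD9 had 1 control-specific peak, in an intron of BAZ1B, and RYK had 1 common peak in intron 1. No peak was listed for FZD2, FZD3, FZD6, FZD8, FZD10 or ROR2.

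Among the agonists, RSPO3, an R-spondin that takes part in liver zonation, had 5 depleted-specific peaks and no other. They rested on 11 or 12 tags each, with 3 in the region upstream, at -314313 to -224373 bp, and 2 in introns 2 and 4. The nearest peak of the control library was between 79400 and 424217 bp away from each. These were low peaks, since 4.97% of depleted-specific peaks had fewer than 11 tags and 24.1% fewer than 12. At least 5 depleted-specific peaks and no other were listed for 1 of the 50 Wnt genes, or 2.00% (0.0506% to 10.6%). The share of protein-coding genes was 0.0997%, within that interval. This condition was set after the values of RSPO3 were seen. RSPO3 lies on chromosome 6, one of the dense chromosomes.

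RSPO4 had 6 depleted-specific, 3 control-specific and 1 common peaks on chromosome 20. The control-specific peaks rested on 13 or 14 tags and the depleted-specific peaks on 11 to 13 tags. Peaks of the 2 specific lists lay side by side in 2 places upstream of the start, with centres 658 and 322 bp apart. RSPO1 and RSPO2 had no listed peak. Of all Wnt genes, 6 had depleted-specific peaks and no other (DKK4, RSPO3, SFRP5, WNT10A, WNT5A and WNT8A), or 12.0%, beside 15.7% of protein-coding genes. Control-specific peaks and no other were listed for 3 (FZD9, WNT5B and WNT8B), or 6.0%, beside 4.32%.

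Among the antagonists, RNF43 had 4 depleted-specific, 2 control-specific and 7 common peaks. Of the common peaks, 5 lay in intron 2, the highest with 27 tags (17.8 to 39.3). It was listed at 10966 bp downstream of an internal start of RNF43, not of the start at the promoter peak. The depleted-specific peaks rested on 12 to 14 tags and the control-specific peaks on 15 and 17 tags. ZNRF3, its paralogue, had common peaks of 14 to 21 tags and depleted-specific peaks of 11 to 16 tags. In both genes the peak with the most tags was a common one, counted in control tags. This is not particular to them. Over all peaks, 87.0% of the control library's peaks with 20 or more tags were common. DKK4 and SFRP5 each had 1 depleted-specific peak of 12 tags, that of DKK4 in an intron of POLB. No peak was listed for DKK2, DKK3, SFRP1, SFRP2, SFRP4 or WIF1.

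**Figure D5:**
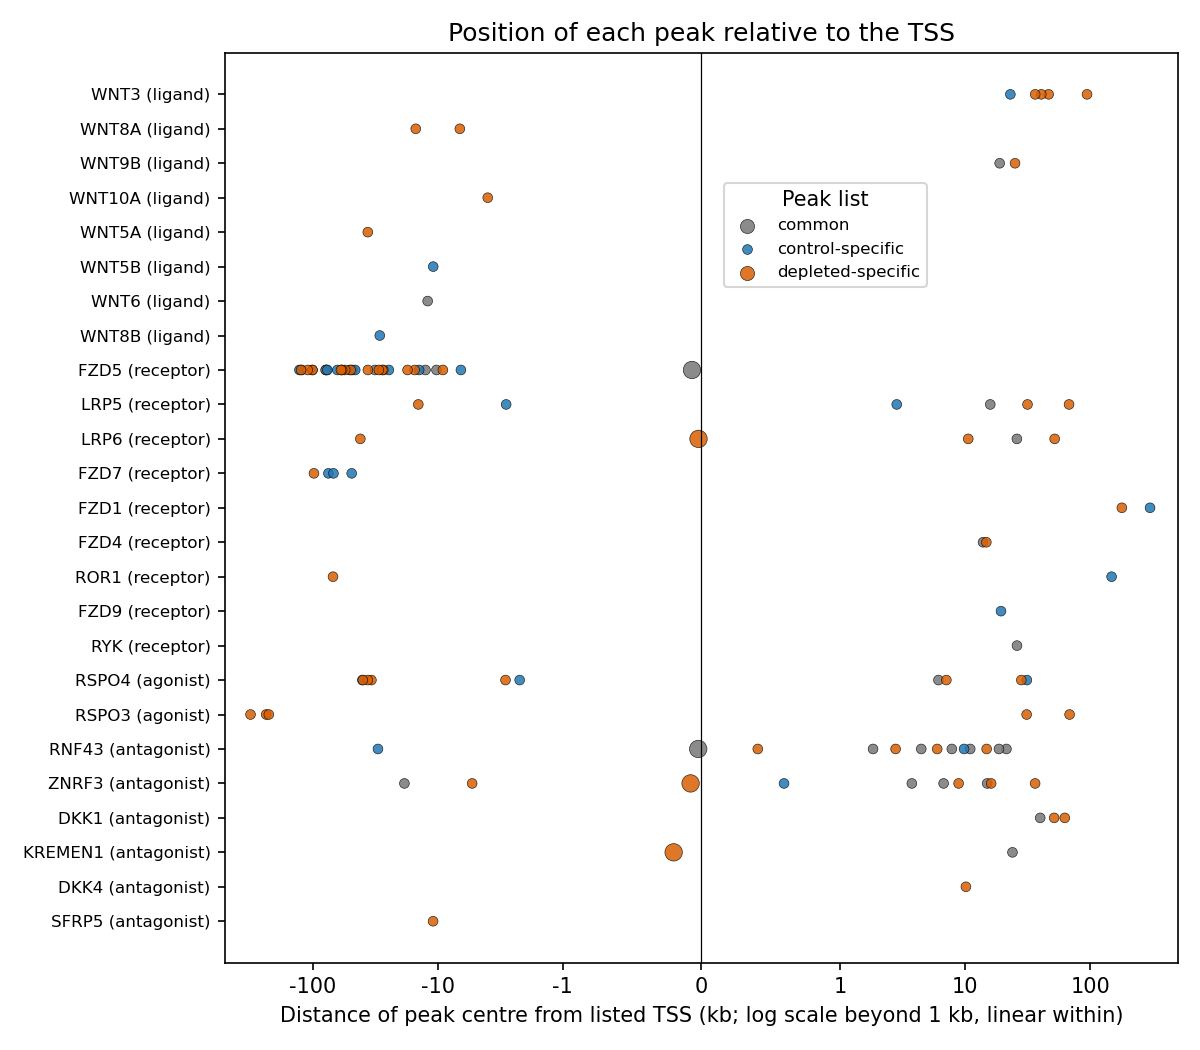
Distance of each of the 115 peak centres from the start of the gene listed for it (horizontal axis in kb, logarithmic beyond 1 kb and linear within), 1 row per Wnt gene, coloured by list, with promoter peaks drawn larger. Promoter peaks appear for FZD5, LRP6, RNF43, ZNRF3 and KREMEN1, while the peaks of ligands and R-spondins lie more than 2 kb from the listed start.

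Most Wnt gene peaks were far from a start. Promoter peaks made up 4.35% of them (1.43% to 9.85%), beside 12.8% of all peaks. Introns held 50.4% and intergenic DNA 40.9%, beside 42.4% and 39.9% of all peaks. Between 10 and 100 kb from the listed start lay 66.1% of the depleted-specific, 60.0% of the control-specific and 71.0% of the common peaks. Over all peaks these shares were 49.6%, 51.9% and 41.5%. The median distance outside promoters was 28576 bp, against 28030 bp for all peaks.

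Heights differed little from those of the lists at large. Peaks of Wnt genes had a median of 13 tags if depleted-specific, 14 if control-specific and 17 if common, beside 12, 14 and 16 for all peaks. Of the control library's Wnt gene peaks with 20 or more tags, 12 of 13 were common (92.3%, 64.0% to 99.8%). With fewer than 15 tags 7 of 20 were common (35.0%, 15.4% to 59.2%), and over all peaks these shares were 87.0% and 29.5%. A peak of the other library was centred within 1000 bp of 4 of the 25 control-specific peaks (16.0%) and 11 of the 59 depleted-specific peaks (18.6%). For all peaks these shares were 21.7% and 14.8%.

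On the dense chromosomes the Wnt genes had 36 depleted-specific, 17 control-specific and 21 common peaks, a ratio of 2.12 (1.16 to 4.02) beside 1.27 for all peaks there. On the other chromosomes they had 23, 8 and 10, a ratio of 2.88 (1.24 to 7.43) beside 2.92. The Wnt genes had peaks at 9 of 10 genes on the dense chromosomes, beside 73.7% of protein-coding genes there, and at 16 of 40 on the others, beside 44.9%. All 3 depleted-specific promoter peaks were on the others, which carry 40 of the 50 Wnt genes. Within 1000 bp of any GENCODE start, WNT3 and RNF43 on dense chromosome 17 had depleted-specific peaks too.

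Motifs were about as frequent as in peaks at large. Outside promoters TCF/LEF letters were found in 45.5% of the 110 Wnt gene peaks (35.9% to 55.2%), beside 45.0% of all 48976 peaks. Sp1 letters were found in 8.18% (3.81% to 15%), beside 5.94%, and the NR2E3 half-site in 22 of 110 (interval of the share 13.0% to 28.7%), beside 20.8%. The shares for CCAAT (34.5% beside 36.5%), C/EBP (20.9% beside 18.1%), AP-1 (10.9% beside 13.1%), FOXA (5.45% beside 6.59%) and HNF4 (2.73% beside 3.03%) had the value of all peaks within their intervals too. In promoters Sp1 letters were found in 3 of the 5 Wnt gene peaks (60.0%), beside 62.3% of all promoter peaks.

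The other genes of the pathway, 36 genes for ligand secretion, further modulators and the β-catenin machinery, were counted the same way. A depleted-specific promoter peak was listed for 5 of them (CSNK1A1, LGR5, TCF7L2, TNKS and TNKS2), or 13.9%, near the 11.9% of all protein-coding genes. A common promoter peak was listed for 8, or 22.2%, and a control-specific one for 1, DVL2. Over all classes they had 48 depleted-specific, 19 control-specific and 25 common peaks, a ratio of 2.53 (1.46 to 4.55) beside the 2.36 of the ligands, receptors and modulators. Promoter peaks in any list were found for 36.1% of them and for 10.0% of the ligands, receptors and modulators, beside 28.7% of all protein-coding genes.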

How the data were processed

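Peak lists came from FAIRE-seq of 1 control and 1 NR2E3-depleted HepG2 library, grouped by treatment per the labels. The authors used Trimmomatic 0.39 for trimming, Bowtie2 2.4.5 for alignment to hg38, and HOMER to call peaks (q-value under 0.05) and annotate them. The peak score is the value the authors deposited, a scaled tag number. It was divided by its step to give tags. The scale and the total tags of each library are not given in the sources used here, nor is the rule that separated common from specific peaks.

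Peaks were assigned by the listed gene name, and promoters by the HOMER class. Gene spans came from GENCODE release 44, and protein-coding genes from RefSeq (GRCh38.p14), to which 10569 of 10676 listed protein-coding names matched. Of the 50 genes, 34 had an entry in the RefSeq promoter table. Shares and ratios carry exact binomial intervals, tags carry Poisson intervals. With 1 library per group no p-value was computed. The genes, lists and settings were chosen with earlier results of these data known. Every gene with a listed peak was named, and genes with a promoter peak, 5 or more peaks or 1 of the 3 highest scores of a list were described peak by peak or by range. A promoter was also taken as 1000 bp around any start of a protein-coding GENCODE transcript. The functions were tested on simulated data. Scripts ran in Python 3.11.15 with scipy 1.17.1, pandas 2.3.3, matplotlib 3.10.9 and numpy 2.4.6. The sequence of 1 control-specific peak is not reported here.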

Additional observations from a re-analysis of the deposited data

How the results depend on the processing

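Recomputing each result under the alternatives gave 71 values within the interval of the reported share or ratio, or within 1.5 times the reported count, and 15 outside it. No paired analysis was possible because there was only 1 library in each group, which also left no replicate to omit.

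With at least 15 tags in specific peaks the ratio of depleted-specific to control-specific peaks was 1.08, 1 gene (ZNRF3) had a depleted-specific promoter peak and 5 genes had more depleted-specific and 5 more control-specific peaks, in place of 17 and 4. With a score of at least 6 the ratio was 4.0 and 2 genes had more control-specific peaks. Neither threshold is equal for the libraries, since 15 tags keep 22% of depleted-specific and 48.0% of control-specific Wnt gene peaks, and the score keeps 81.4% and 48.0%. Promoters taken as within 1000 bp of the TSS gave 1 gene with a control-specific promoter peak (ZNRF3). All peaks within 100 kb of a TSS gave 30 genes with more depleted-specific peaks and a promoter share of 15.3%, since peaks of neighbouring genes are then counted. Without chromosomes 2, 6, 14, 16, 17 and 20, 0 genes had a common promoter peak, 10 genes had more depleted-specific peaks, and the motif shares over peaks of all classes were 24.4% for CCAAT and 2.44% for AP-1, against 34.8% and 11.3% with all chromosomes. All peaks outside those chromosomes gave 38.2% and 13.5%. In 200 bp around the centre 22.6% held CCAAT and 13.0% the NR2E3 half-site, beside 27.5% and 13.5% of all peaks. Leaving out FZD5, chosen after the data were seen, gave 1 gene with a common promoter peak. At a median of 13 to 17 tags per peak, the listing of a single peak of that height in 1 library is not a firm difference.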

Other observations

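By the nearest protein-coding start of GENCODE, 15 peaks listed under other genes belonged to 7 Wnt genes, and 6 listed ones went to other genes, for 124 peaks at 26 Wnt genes. ZNRF3 gained 5 of them, listed under ZNRF3-AS1, of which 2 were common, 1 control-specific and 2 depleted-specific. DKK1 gained 3, 1 in each list. WNT7B gained a depleted-specific peak of 19 tags and a common peak of 16 tags, and SFRP4 gained a depleted-specific peak of 12 tags.

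In the other direction, 22 listed peaks of 7 Wnt genes lay inside another gene, 15 of them those of FZD5 in PLEKHM3.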
